A study of Mus musculus with 8 samples.

Results

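Metallothioneins and zinc transporters were represented by 8 of the 25239 genes counted in each liver. These were the metallothioneins Mt1 and Mt2, their regulator Mtf1, the exporters Slc30a1 and Slc30a10, and the importers Slc39a14, Slc39a4 and Slc39a5. The genes were chosen by their values in the comparison of Smo-KO with control livers, in which Mt1 came first of 12977 genes tested when these were ordered by p, so their differences between the groups are given as values without a test. All 8 had enough reads to be among the genes tested.

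Bulk RNA-Seq was done on livers of 4 control and 4 Smo-KO mice to learn how loss of Smo, the membrane protein that passes on Hedgehog signals, changes a fatty liver. All 8 were adult male Smo flox/flox mice on a C57Bl6/J background, fed the CDA-HFD, a choline-deficient high-fat diet that induces steatohepatitis, for 6 weeks. In the last week, 1 week before sacrifice, control mice received AAV8-TBG-Luciferase and Smo-KO mice AAV8-TBG-Cre by tail vein. The labels call the control genotype WT, although these mice carried the floxed alleles as well. The TBG promoter is active in hepatocytes, so Smo of the other liver cells was not targeted, and no group without a vector or on another diet was analysed here. Between 8203299 and 9999732 reads per liver fell on genes. Levels are given as CPM, in which the reads of a gene are set against the scaled total of reads on genes of its library, and 3 reads corresponded to 0.297 to 0.366 CPM. Whole liver was measured, so more RNA per cell and more cells of a type cannot be told apart.

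Metallothioneins are small, cysteine-rich proteins that bind zinc and copper and buffer these metals in the cell. Zinc binds the transcription factor MTF1, encoded by Mtf1, which then occupies metal response elements (MREs) before the metallothionein genes and before Slc30a1. In liver, metallothioneins are also known to be induced by glucocorticoids and during the acute-phase response. SLC30 proteins move zinc, or in the case of SLC30A10 manganese, out of the cytosol, and SLC39 proteins move metals into it.

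Mt1 and Mt2 lie side by side on the plus strand of chromosome 8, in a cluster with Mt3 and Mt4. In GRCm38 with GENCODE M21, Mt2 spans chr8:94172664-94173568 and Mt1 chr8:94179082-94180327, and their annotated starts are 6.4 kb apart. The start of Mt3 is 26.5 kb and that of Mt4 41.9 kb from the start of Mt1. Stretches of 472 bases before the start codon of Mt1 and 480 bases before that of Mt2 were read for the MRE core, written TGCACNC or TGCGCNC and searched on both strands, because a promoter with several such elements is what the metallothionein genes are known for. The sites nearest the genes are shown, with the match to the core in capitals (for a match on the other strand, its reverse complement).
Mt1 site 1, chr8:94179056-94179082: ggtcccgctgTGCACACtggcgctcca
Mt1 site 2, chr8:94179089-94179117: tcTGCACTCcgcccgaaaagTGCGCTCgg
Mt1 site 3, chr8:94179169-94179197: tgctGGGTGCAaacccttTGCGCCCggac
Mt2 site 4, chr8:94172612-94172638: aattcgggtcGTGCGCAggcccagggg
Mt2 site 5, chr8:94172674-94172703: gcGTGTGCAggcggcgggggcGCGTGCAtg
Mt2 site 6, chr8:94172719-94172745: gcggagctttTGCGCTCgacccaatac
The stretch before Mt1 held 5 matches, all between 245 and 118 bases before the start codon. The stretch before Mt2 held 7, between 453 and 113 bases before it. TATAAA, the letters of a TATA box, began 101 bases before the start codon of Mt1 and 95 bases before that of Mt2, after the last MRE core in both. Mt1 has annotated transcript starts 229, 100 and 70 bases before the start codon, so sites 2 and 3 lie inside the first exon of the longest transcript and upstream of the other starts. Mt2 sites 5 and 6 lie after its annotated start, 184 bases before the start codon.

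**Figure D1:**
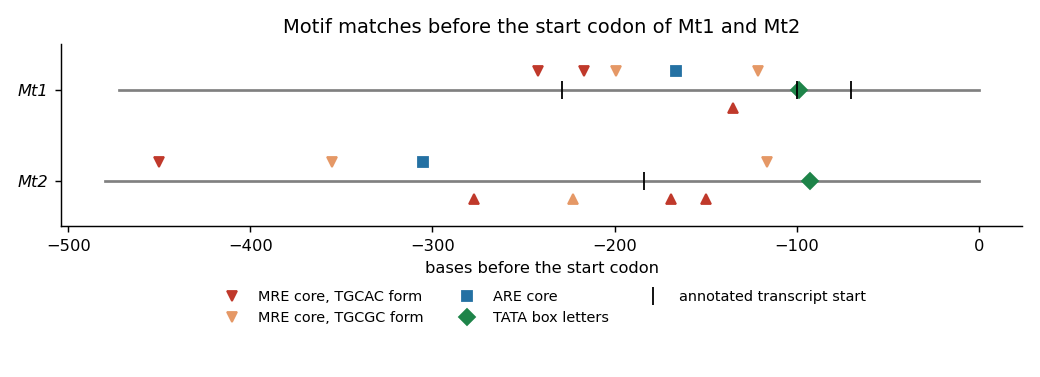
Motif matches before the start codons of Mt1 and Mt2, with the distance to the start codon in bases on the x axis. Triangles are MRE cores (pointing down above the line for the plus strand, pointing up below it for the minus strand), squares the antioxidant response element (ARE) core TGACNNNGC, diamonds TATAAA and vertical ticks the annotated transcript starts. The 5 cores of Mt1 lie within a shorter stretch than the 7 of Mt2.

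RefSeq (GRCm38.p6) windows of 300 bases, 250 before and 50 after an annotated start, were available for Mt1, Mt2, Mtf1, Slc30a1, Slc30a10 and, with a pair of starts, Slc39a5, and motif counts between genes were compared on these. The window held 4 MRE cores for Mt2, 3 for Mt1, 3 for Slc30a10, 2 for Slc30a1 and 0 for Mtf1, and those of Slc39a5 held 1 and 0. Of 32851 windows in the genome table, 25.7% held at least 1, 7.11% at least 2, 1.97% at least 3 and 0.517% at least 4. The cores of Slc30a10 and Slc30a1 are shown because these exporters, like the metallothioneins, had more than 1 core in their windows.
Slc30a10 site 1, chr1:185454605-185454632: gtaggcagcgGTGCGCACacccactaca
Slc30a10 site 2, chr1:185454765-185454791: gacatcccaaTGCGCCCctcctcccag
Slc30a1 site 1, chr1:191906728-191906754: cgggggttccGAGTGCAaagcaaagtt
Slc30a1 site 2, chr1:191906801-191906827: cctccgggccGAGCGCAgtcgccgcgg
All are printed as on the plus strand. In Slc30a10 site 1 the core was matched on both strands by overlapping letters, so its 3 matches stand for fewer places. The ARE core TGACNNNGC, the letters bound by Nrf2, occurred once each in the windows of Mt2 and Slc30a1, at 2 places in 1 of the windows of Slc39a5 and in none of the other windows compared. At least 1 was found in 12.4% of all windows. The longer stretch before the start codon of Mt1 held 1 ARE core, 170 to 162 bases before it, which the RefSeq window does not reach. A match shows that the letters are there and not that a factor binds them.

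Smo, the targeted gene, was checked first. It was at 8.17, 8.49, 8.74 and 8.21 CPM in the 4 control livers and at 5.67, 3.93, 4.27 and 4.37 CPM in the 4 Smo-KO livers, so the groups did not overlap and the Smo-KO mean was 54.3% of the control mean. The log2 fold change was -0.88 with a standard error (SE) of 0.16. Its adjusted p was 0.0957 by edgeR's quasi-likelihood test and 0.00613 by DESeq2, and without the first Smo-KO liver edgeR's adjusted p was 0.0266. An exact permutation test of the CPM, two-sided, gave p = 0.0286, the smallest value 4 against 4 livers allow. No gene, 0% of the 12977, had an adjusted p under 0.05 by edgeR, where 1797 had an unadjusted p under 0.05 and DESeq2 called 163, or 1.26%. With 1 liver left out, edgeR called between 0 and 78, the most without the first Smo-KO liver.

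Both expressed metallothionein genes were higher in Smo-KO livers. Mt1 was at 71.7, 86.6, 66.4 and 88.4 CPM in the control livers and at 147, 144, 179 and 120 CPM in the Smo-KO livers. Every Smo-KO liver was above every control liver. The mean went from 78.3 CPM ± 10.9 to 147 CPM ± 24.6 (SD, n = 4 each), and the Smo-KO livers lay at 1.53 to 2.29 times the control mean. The log2 fold change was 0.91 (SE 0.13). These values rested on 632 to 894 reads per control liver and 1121 to 1471 reads per Smo-KO liver.

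Mt2, its neighbour, was at 26.4, 44.8, 29.2 and 39.4 CPM in the control livers and at 63.4, 69.8, 59.0 and 53.0 CPM in the Smo-KO livers. The groups again did not overlap, with the lowest Smo-KO liver above the highest control liver. The mean went from 34.9 CPM ± 8.59 to 61.3 CPM ± 7.10 (SD, n = 4 each). On the log2 scale Mt2 differed by 0.81 (SE 0.15). Groups that did not overlap, with Smo-KO the higher, were found for 3.03% of the genes tested. As Mt1 and Mt2 were chosen on this comparison, nothing is read from that share.

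**Figure D2:**
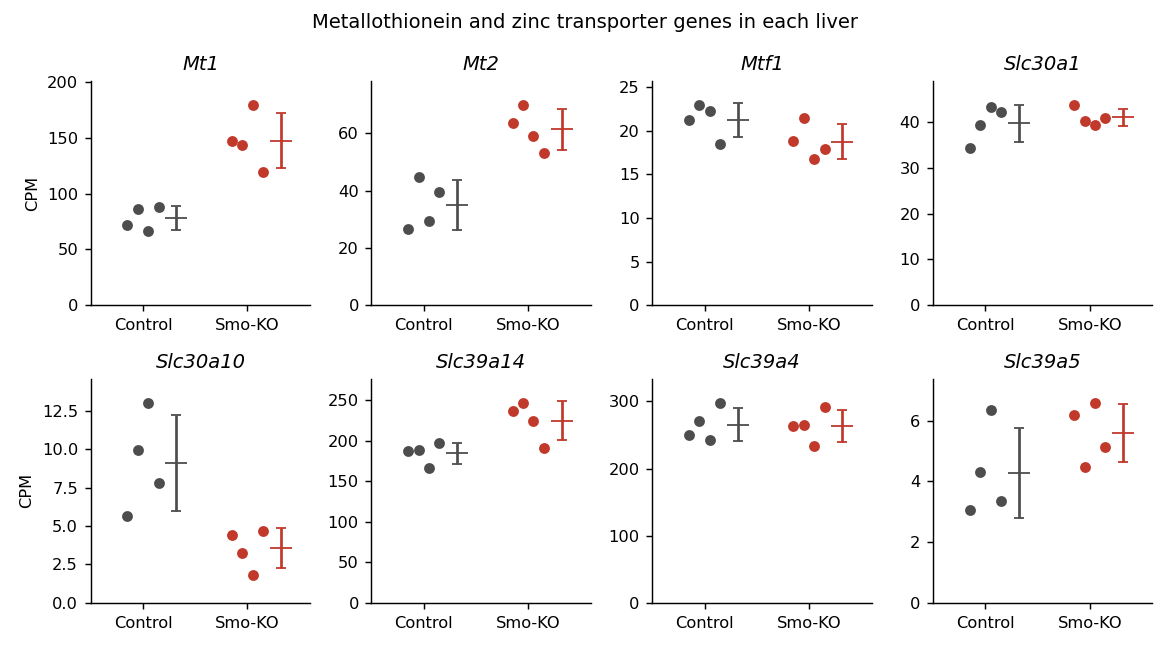
CPM of the 8 genes in each liver (points), with the mean and SD of each group (bar with error bar, n = 4), control in grey and Smo-KO in red, all axes from 0. No Smo-KO point of Mt1 or Mt2 is as low as the highest control point, no Smo-KO point of Slc30a10 is as high as the lowest one, and the groups overlap in the other 5 panels.

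The ratio of Mt1 to Mt2 in CPM differed between the groups by less than its spread, with 2.29 ± 0.320 in control livers and 2.42 ± 0.430 after loss of Smo (SD, n = 4 each). It ranged from 1.93 in the second control liver to 3.04 in the third Smo-KO liver. No 50-base stretch of the Mt1 transcripts occurs in the transcripts of another gene, Mt2 included, so reads of that length can be told apart between the pair. Exons of Mt2 overlap those of the antisense gene Gm45774, which has no entry in the count lists. Of the 50-base stretches of Mt2, 45.8% also occur in the transcripts of Gm45774 (22.4% of those of 100 bases), read on either strand, and whether strand was used in counting is not given in the sources used here.

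**Figure D3:**
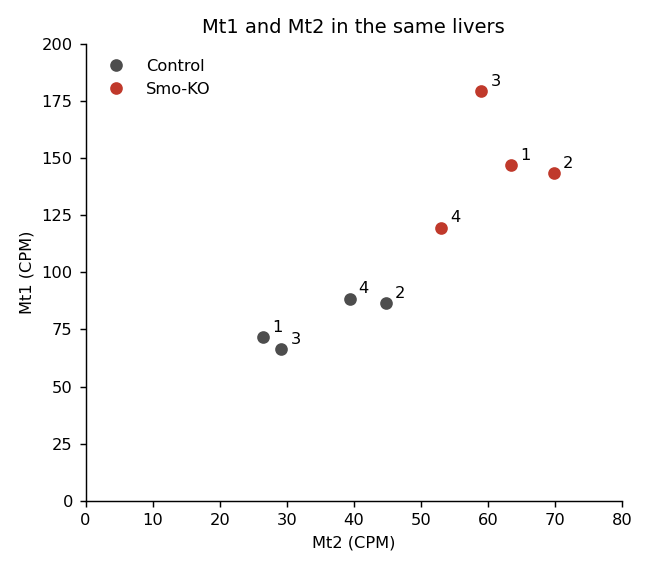
Mt1 (y axis, CPM) against Mt2 (x axis, CPM) in each liver, with the replicate number beside each point, control in grey and Smo-KO in red. The Smo-KO livers lie above and to the right of all control livers, and the third Smo-KO liver has the highest Mt1 without the highest Mt2.

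Mt3 and Mt4, which are mainly expressed in brain and in stratified epithelia, were at the floor, with 9 and 4 reads in all 8 livers together, and were not tested. Around Mt1, 19 genes other than metallothioneins are annotated within 250 kb, of which 9 had an entry and 6 were tested. None had an adjusted p under 0.05 by edgeR (lowest 0.247), and 2 had an unadjusted p under 0.05, both lower in Smo-KO livers, where 7.15% of all genes tested were lower by that rule. These were Nup93, a nuclear pore gene (log2 fold change -0.34, SE 0.12), and Ogfod1 (-0.28, SE 0.12), each with groups that did not overlap. Nudt21 (0.080), Bbs2 (0.41) and Herpud1 (-0.28) overlapped between the groups.

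Mtf1 (chr4:124802104-124849800, plus strand), which encodes the zinc sensor, was at 21.2, 23.0, 22.3 and 18.5 CPM in the control livers and at 18.9, 21.5, 16.8 and 17.9 CPM in the Smo-KO livers. The groups overlapped, and the log2 fold change was -0.18 (SE 0.11). Of 6 other genes described as MTF1 targets, 5 were tested, and 0 had an adjusted p under 0.05 by edgeR or DESeq2, with 2 higher and 3 lower in Smo-KO livers. By unadjusted edgeR p, 1 (Selenow) was under 0.05 with the higher level and 1 (Gclc) with the lower. Of all genes tested, 6.7% and 7.15% were under 0.05 in these directions. Gclc, which encodes the catalytic subunit of the enzyme that starts glutathione synthesis, was at 524 CPM ± 56.8 in control and 411 CPM ± 46.6 in Smo-KO livers (log2 fold change -0.35, SE 0.11, edgeR adjusted p = 0.211). Selenow, a selenoprotein gene, had a log2 fold change of 0.22 (SE 0.10, edgeR adjusted p = 0.342), and Ndrg1 one of -0.36 (SE 0.23, edgeR adjusted p = 0.507). With 1 liver left out, that of Ndrg1 ranged from -0.62 (without Smo-KO liver 1) to -0.20 (without Smo-KO liver 3).

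The exporters gave unlike values. Slc30a1, the plasma membrane zinc exporter and a well-known MTF1 target (chr1:191906767-191913247, plus strand), was at 34.3, 39.3, 43.2 and 42.1 CPM in the control livers and at 43.7, 40.1, 39.4 and 40.9 CPM in the Smo-KO livers. The groups overlapped almost fully. Its log2 fold change of 0.046 (SE 0.097) stands beside 0.91 for Mt1, with MRE cores in the windows of both genes.

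Slc30a10, a manganese exporter of hepatocytes and bile ducts (chr1:185454848-185468762, plus strand), was at 5.67, 9.96, 13.0 and 7.81 CPM in the control livers and at 4.43, 3.27, 1.83 and 4.69 CPM in the Smo-KO livers. Every Smo-KO liver was below every control liver, the nearest pair being 4.69 and 5.67 CPM. The mean of 9.12 CPM ± 3.14 in control livers stood against 3.56 CPM ± 1.31 (SD, n = 4 each), or 39.0% of control, in Smo-KO livers, and the log2 fold change was -1.35 (SE 0.29). The gene was counted on 50 to 131 reads per control liver and 15 to 44 reads per Smo-KO liver, so counting error weighs more here than for Mt1. Separate groups with Smo-KO the lower were found for 4.34% of the genes tested. Exons of Slc30a10 overlap those of the antisense gene Gm2061, as those of Mtf1 and Slc30a1 overlap 1110065P20Rik and 1700034H15Rik.

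The importers were less far apart between the groups than the metallothioneins. Slc39a14 (chr14:70303469-70351425, minus strand) encodes ZIP14, which carries zinc, manganese and iron into hepatocytes and is known to be induced in inflammation. It was at 187, 188, 166 and 197 CPM in the control livers and at 236, 246, 224 and 191 CPM in the Smo-KO livers. Of the Smo-KO livers, 3 were above all control livers and the fourth lay below the highest control liver. The log2 fold change was 0.28 (SE 0.10), and 1645 or more reads per liver stood behind each value.

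Slc39a4, the importer needed for zinc uptake in the gut (chr15:76612383-76617384, minus strand), was at 249, 271, 243 and 298 CPM in the control livers and at 264, 265, 233 and 292 CPM in the Smo-KO livers. The ranges nearly coincided, and the log2 fold change was -0.011 (SE 0.098). Slc39a5, an importer of the basolateral membrane (chr10:128395931-128401229, minus strand), was at 3.06, 4.30, 6.36 and 3.36 CPM in the control livers and at 6.19, 4.47, 6.59 and 5.12 CPM in the Smo-KO livers. The groups overlapped, and the log2 fold change of 0.38 (SE 0.24) rested on 27 to 64 reads per liver. Without the third control liver it was 0.64.

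**Figure D4:**
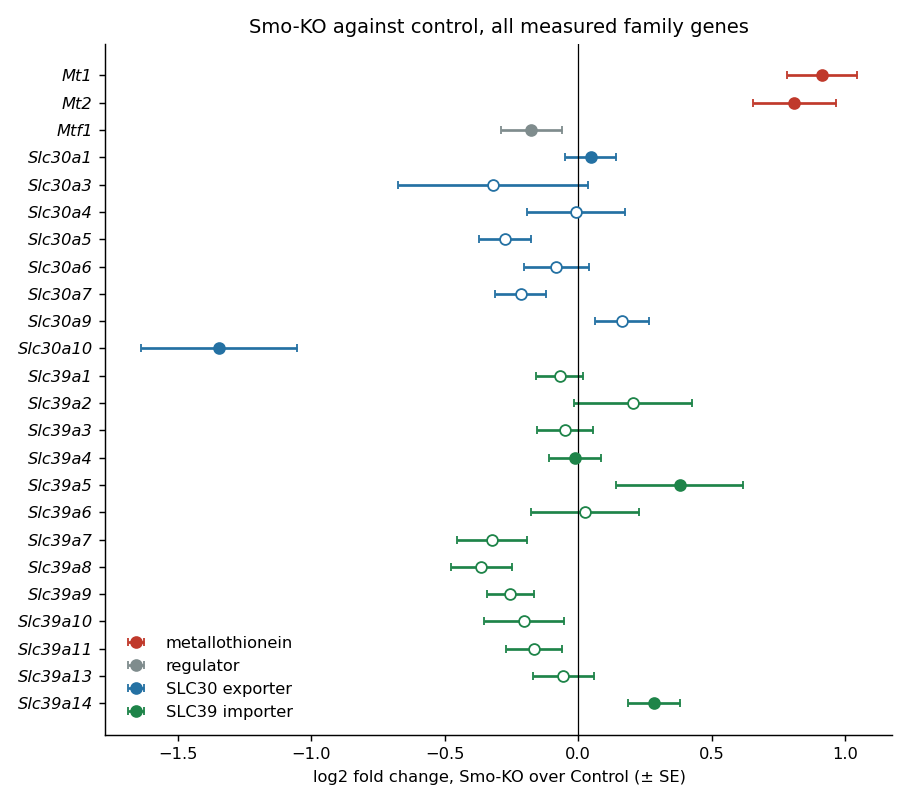
Log2 fold change of Smo-KO over control livers (x axis, error bars SE) for 24 tested genes, the metallothioneins, Mtf1 and the SLC30 and SLC39 genes, by role. Filled circles are the 8 genes chosen on this comparison and open circles the other 16 genes. Mt1 (0.91), Mt2 (0.81) and Slc30a10 (-1.35) lie farthest from 0.

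The other genes of these families were tested. They are what was left after the 8 genes had been picked by their values, so the balance of directions among them is partly set by that choice. Of 21, 16 had enough reads, and 0 had an adjusted p under 0.05 by edgeR (lowest 0.217) or by DESeq2. By unadjusted p, 5 were under 0.05, all with the lower level in Smo-KO livers, and 0 with the higher level, where 7.15% and 6.7% of all genes tested were under 0.05 in these directions. The median log2 fold change over the 16 was -0.12, against -0.00084 over all genes tested. A lower level in Smo-KO livers was seen for 13 and a higher one for 3.

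Those with an unadjusted p under 0.05 were a pair of exporters of the secretory pathway and 3 importers. Slc39a8 encodes ZIP8, which takes up manganese and zinc. It was at 20.9, 25.5, 23.3 and 21.1 CPM in the control livers and at 19.2, 17.1, 15.1 and 19.0 CPM in the Smo-KO livers, which did not overlap (log2 fold change -0.36, SE 0.11, edgeR adjusted p = 0.217). Slc39a9, a Golgi-resident importer, was at 80.2, 82.5, 85.0 and 88.6 CPM and at 76.8, 74.1, 62.7 and 68.3 CPM, again without overlap (log2 fold change -0.25, SE 0.089, edgeR adjusted p = 0.248). Slc39a7, which releases zinc from the endoplasmic reticulum, had a log2 fold change of -0.32 (SE 0.13, edgeR adjusted p = 0.301). Slc30a5 (-0.27, SE 0.10) and Slc30a7 (-0.22, SE 0.10), which load zinc into the secretory pathway, had edgeR adjusted p-values of 0.253 and 0.338. None of these differences passed the test after adjustment.

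The other 11 tested members lay between log2 fold changes of -0.32 for Slc30a3 (1.30 CPM in control livers) and 0.20 for Slc39a2, and their edgeR adjusted p-values were 0.495 or more. They were, among the exporters, Slc30a3, Slc30a4 (-0.0090), Slc30a6 (-0.082) and Slc30a9 (0.16). Among the importers they were Slc39a1 (-0.070), Slc39a2, Slc39a3 (-0.051), Slc39a6 (0.025), Slc39a10 (-0.20), Slc39a11 (-0.16) and Slc39a13 (-0.056). With 1 liver left out, Slc30a3 ranged from -0.58 (without Smo-KO liver 1) to -0.15 (without Smo-KO liver 2). Slc39a2 then ranged from 0.015 (without control liver 3) to 0.39 (without control liver 1). Slc30a2, Slc30a8 and Slc39a12 had at most 2 reads in any liver and were not tested.

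The manganese transporters can be set side by side from these values. Slc30a10, which exports manganese, was at 39.0% of its control mean, Slc39a8, which imports it, at 77.6%, and Slc39a14, which imports it from the blood side, at 122%. The first and the last of these were chosen on the comparison.

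Levels were compared between genes per kb of annotated exon. In control livers Slc39a4 had the highest level of the 24 tested genes (metallothioneins, Mtf1, SLC30 and SLC39), 85.4 CPM per kb (78.1 to 95.9 over the 4 livers), and its range lay above that of Slc39a7 (66.8), the next. Mt1 followed at 62.8 (53.3 to 71.0) and Mt2 at 59.4 (44.9 to 76.1) CPM per kb, and the ranges of Slc39a7, Mt1, Mt2 and Slc39a1 (55.7) overlapped from each gene to the next. Slc39a14 was at 17.5 CPM per kb and did not differ beyond its spread from Slc39a11 (19.3). Slc30a1 (7.58), Mtf1 (2.38), Slc39a5 (1.92) and Slc30a10 (1.56) were lower, and the range of each overlapped that of the next gene in the order. In Smo-KO livers the means were 118 CPM per kb for Mt1, 104 for Mt2 and 84.8 for Slc39a4. The annotated exons of Mt1 together cover the whole gene, introns included, so the length used, 1246 bases, exceeds the 549 bases of its first listed transcript. With the lengths of first listed transcripts, an alternative chosen after seeing the data, Mt1 led in control livers (143 CPM per kb), ahead of Slc39a4 (129) and Slc39a14 (87.9).

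**Figure D5:**
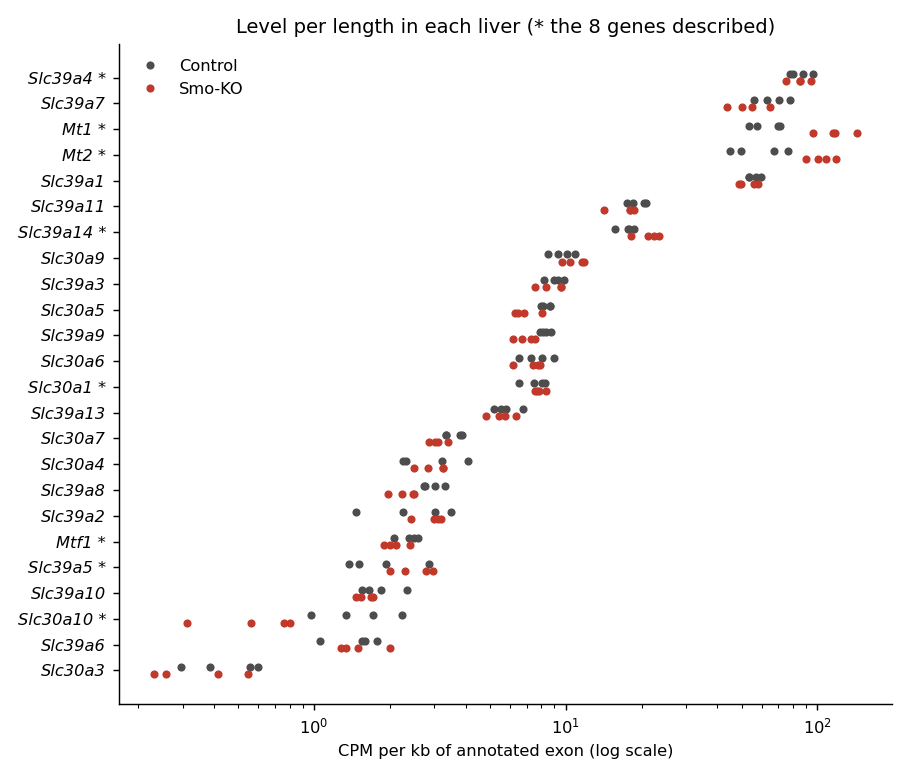
CPM per kb of annotated exon (log axis) in each control (grey) and Smo-KO (red) liver for the 24 tested genes, ordered by the control mean, with an asterisk at the 8 genes described. The metallothioneins lie below Slc39a4 (85.4) in control livers and above it in the mean of Smo-KO livers (118 and 104 against 84.8).

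The livers within a group also differed. After the group means were removed, the Pearson correlation of log2 CPM with Mt1 over the 8 livers was 0.63 for Mt2 and 0.66 for Slc39a14. These came 646th and 546th in order among the 12976 other genes. It was -0.59 for Slc30a10, -0.35 for Mtf1, -0.028 for Slc30a1, -0.11 for Slc39a4 and -0.041 for Slc39a5. The genes with the highest correlation were Naip6 (0.98, a receptor of bacterial proteins), Birc3 (0.97, a ubiquitin ligase), Trp53i13 (0.96), Mvp (0.95, the major vault protein) and Itgax (0.95, an integrin of myeloid cells). With Spearman's rho, 4 of these 5 were among the highest. The values share the libraries and their depth, and they describe 8 livers only. Picked as the highest of 12976 genes, such correlations can arise by chance, and this was not tested. Naip6 was also low, at 2.04 CPM in control and 2.53 CPM in Smo-KO livers. Between the groups these 5 genes had log2 fold changes of -0.23 to 0.29, and edgeR adjusted p-values of 0.315 or more.

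Genes of other responses that involve metallothioneins were set beside them. Of 10 genes of the glucocorticoid response, the gene of the receptor itself included, 0 had an adjusted p under 0.05 by edgeR or DESeq2. By edgeR 0 had an unadjusted p under 0.05, and the median log2 fold change was -0.089. The smallest p-values were those of Tat, a tyrosine-degrading enzyme (-0.62, SE 0.31), Fkbp5, a chaperone of the glucocorticoid receptor (0.36, SE 0.18), and Dusp1, a phosphatase (-0.51, SE 0.26), with edgeR adjusted p-values of 0.397 to 0.413. Fkbp5 was higher, and Tat and Dusp1 were lower, in Smo-KO livers. With 1 liver left out, Tat ranged from -0.85 (without Smo-KO liver 1) to -0.35 (without Smo-KO liver 3). Dusp1 then ranged from -0.69 (without control liver 3) to -0.21 (without control liver 2). For Fkbp5 the range was 0.24 (without control liver 3) to 0.59 (without control liver 4).

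Of 20 acute-phase genes, 0 had an adjusted p under 0.05 by edgeR or DESeq2, 2 had an unadjusted p under 0.05 with the higher level in Smo-KO livers and 1 with the lower, against 6.7% and 7.15% of all genes tested. Lcn2, an iron-sequestering protein, was at 796 CPM ± 102 and 964 CPM ± 44.6 (log2 fold change 0.28, SE 0.10, edgeR adjusted p = 0.267). Saa1, serum amyloid A, was at 170 CPM ± 43.3 and 291 CPM ± 180 (0.77, SE 0.33, edgeR adjusted p = 0.330), with 541 CPM in the second Smo-KO liver and a log2 fold change of 0.28 without it. Fga, a fibrinogen chain, was at 1872 CPM ± 103 and 1526 CPM ± 286 (-0.30, SE 0.12, edgeR adjusted p = 0.308).

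Of 10 targets of Nrf2, the regulator of antioxidant defense, 9 had the lower level in Smo-KO livers. By edgeR 0 had an adjusted p under 0.05 and 4 an unadjusted p under 0.05, all lower, where 7.15% of all genes tested were lower by that rule, and DESeq2 called 1 of the 10 and 1.26% of all genes. This was Txnrd1, thioredoxin reductase (-0.35, SE 0.087, edgeR adjusted p = 0.152, DESeq2 adjusted p = 0.0252), whose groups did not overlap. Srxn1 (-0.41, SE 0.14) and G6pdx (-0.32, SE 0.12) had edgeR adjusted p-values of 0.242 and 0.275. The median log2 fold change of these 10 genes was -0.18. Whether Nrf2 has a part in the metallothionein values was not tested.

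Of 11 copper genes, 10 were tested and 0 had an adjusted p under 0.05 by edgeR or DESeq2. Ccs, the copper chaperone of superoxide dismutase, was the one with an unadjusted p under 0.05, with the higher level as in 6.7% of all genes tested (167 CPM ± 26.3 and 213 CPM ± 27.8, log2 fold change 0.35, SE 0.12, edgeR adjusted p = 0.247). Atox1, the chaperone that hands copper to the export pumps, followed at 0.23 (SE 0.11, edgeR adjusted p = 0.373), and Atp7b, the pump that moves copper to bile, was at -0.17 (SE 0.14, edgeR adjusted p = 0.645). Sco2 was listed at 0 in every liver.

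Markers of liver cell types were summed in each liver. Hepatocyte markers (6 genes, Alb the most abundant) summed to 24949 CPM ± 1852 in control and 23950 CPM ± 741 in Smo-KO livers (exact permutation test, two-sided, p = 0.429, adjusted over 9 lists 0.943). Among them Cps1, a urea cycle enzyme, had the smallest p (-0.33, SE 0.10, edgeR adjusted p = 0.218). Ass1, listed here as a hepatocyte marker, was at 0 in all livers but 1, where it had 1 read. A listed 0 need not mean that the RNA was absent, and why Ass1 had so few reads was not tested. T and NK cell markers (6 genes, Nkg7 the most abundant) summed to 43.2, 40.5, 35.6 and 48.6 CPM in the control livers and to 19.4, 17.0, 29.0 and 28.6 CPM in the Smo-KO livers, so they moved with the groups as Mt1, Mt2 and Slc30a10 did. Of the 6, Ncr1 and Klrb1c were below 1 CPM in every liver. The exact permutation p of this sum was 0.0286, the smallest possible, and 0.257 after adjustment over the 9 lists. By edgeR 0 of the 4 tested genes of that list had an adjusted p under 0.05 and by DESeq2, which called 1.26% of all genes, 3, Cd8a (-0.77, SE 0.16), Nkg7 (-0.94, SE 0.22) and Cd3e (-0.98, SE 0.27). By unadjusted edgeR p, all 4 tested T and NK cell genes were under 0.05 and lower in Smo-KO livers, against 7.15% of all genes tested. The part of these cells in the metallothionein and transporter values was not tested.

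The sums of the other marker lists overlapped between the groups, with adjusted exact permutation p-values of 0.943. Kupffer cell and macrophage markers (6 genes, Cd5l the most abundant) were at 1413 CPM ± 259 and 1419 CPM ± 271. Endothelial markers were at 171 CPM ± 15.3 and 141 CPM ± 43.6, stellate cell markers at 617 CPM ± 40.2 and 599 CPM ± 87.8, and cholangiocyte markers at 148 CPM ± 41.9 and 177 CPM ± 45.5. Neutrophil markers were at 10.3 CPM ± 3.62 and 9.75 CPM ± 1.55, with Ly6g at 0 in every liver. Pancreatic acinar markers, looked at because Slc39a5 is abundant in pancreas, summed to less than 1.25 CPM in each liver, with Cpa1 at 0. Enterocyte markers, looked at because Slc39a4 is abundant in gut, rested on Fabp2 (108 CPM over all livers), with Sis and Alpi at 0.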

How the data were processed

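For each of the 8 livers the authors deposited whole-number read counts per gene symbol, not normalized. Submitters' processing notes name fastp, STAR 2.7.5, featureCounts 2.0.1 and GRCm38. Strand use and annotation are not given in the sources used here, and the lists close with entries of the form htseq-count writes (reads on no gene, 8.33% in control livers and 9.23% after Cre, and ambiguous reads, 2.55% and 2.51%). Both entered neither library sizes nor tests. The number of columns not used was 0.

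Counts were analysed with edgeR 4.0.16 in R 4.3.3 (low counts removed by filterByExpr, TMM scaling, quasi-likelihood F test of genotype with no covariate, p adjusted by Benjamini-Hochberg for 12977 genes), with DESeq2 1.42.0 as an alternative. SEs follow from edgeR's F statistic. CPM use TMM-scaled library sizes, and log2 CPM a prior count of 2. Marker sums and Smo were compared by exact permutation tests over 70 assignments, two-sided (scipy 1.17.1). Figures used matplotlib 3.10.9. Positions, exon lengths and stretches of 50 bases shared between genes came from GENCODE M21, and promoter windows from RefSeq (GRCm38.p6). The windows were matched by symbol, and 6 of the 8 genes had one. No molecular identifiers are described, so depth covers counting error only. Nothing says whether the mice of a group shared a cage or a batch, and p-values measure the spread between these livers. Within a group, the chi-square of counts between 2 livers was 7.76 to 17.6 per degree of freedom, so none was a copy of another.

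The 8 genes and all gene lists were chosen with earlier results of these data known. Named were Smo, the 8 genes, the other metallothionein, SLC30 and SLC39 genes, the 3 genes with the smallest p in each other list, the genes within 250 kb of Mt1 and the 5 genes most correlated with Mt1. The result of 1 gene under this rule is not reported here, and counts include it. Named outside this rule, after their values were seen, were Atp7b, Ncr1, Klrb1c and other genes listed at 0 or below 1 CPM. The fit was tested on 3 simulated data sets with the mean levels and fitted dispersions of these livers (a median of 12869 genes, 200 changed in each). Of genes changed 2-fold, 87.3% were recovered, with 7.25% false calls. Genes were drawn independently of each other and the changed ones were not taken from the lowest levels. The share recovered therefore need not hold for the livers themselves. Alternatives were DESeq2, other size factors and filters, a replicate block and leaving out each mouse.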

Additional observations from a re-analysis of the deposited data

Results flagged for a closer look

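In 79 measures and 158 groups of 4 livers, a liver stood far from the other 3 of its group in 6 cases, where chance gives about 7.9 (1 in 20). None of these was a value of the 8 metallothionein and zinc transporter genes. Slc39a11, another SLC39 importer, was at 47.7 CPM in the third Smo-KO liver and at 60.3 to 62.8 CPM in the other Smo-KO livers. Its library was also the smallest, with 8203299 reads on genes, where the other Smo-KO libraries held 9367795 to 9543675. In the first Smo-KO liver, Dusp1 was high (43.5 CPM, against 29.8 to 31.6), Sox9 was high (13.7 CPM, against 8.94 to 9.76) and Ogfod1 was low (10.9 CPM, against 12.9 to 13.3). Cd8a was at 11.001 CPM in the first control liver and at 9.44 to 9.54 CPM in the other control livers.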

How the results depend on the processing

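The count of edgeR calls at an adjusted p under 0.05 moved from 0 to 163 with DESeq2, to 61 without a filter and to 8 with the replicate block. It ranged from 0 to 78 when 1 mouse was left out (78 without Smo-KO mouse 1, 5 without control mouse 1, 4 without Smo-KO mouse 3). The log2 fold change of Smo passed the threshold with DESeq2 (-0.87), without a filter (-0.88) and without Smo-KO mouse 1, and ranged from -0.997 to -0.81 over the mice left out. The log2 fold changes of the 8 metallothionein and transporter genes moved by less than the spread between replicates under all 14 alternatives. Those of Mt1 (0.80 to 1.00), Mt2 (0.70 to 0.95), Slc30a10 (-1.51 to -1.12), Mtf1 (-0.25 to -0.13), Slc39a14 (0.24 to 0.35) and Slc39a5 (0.25 to 0.64) kept their sign, and those of Slc30a1 (-0.018 to 0.093) and Slc39a4 (-0.063 to 0.054) did not. Of the other zinc genes, 0 had an adjusted p under 0.05 under every alternative, and 3 to 5 an unadjusted p under 0.05 with 1 mouse left out.

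Whether the replicate numbers pair the mice is not given in the sources used here, and the values do not settle it. The correlations of same-numbered livers were low, at 0.079, 0.236, 0.068 and 0.087, but 3 of 4 numbers matched best with their own. A shared batch of same-numbered mice therefore stays possible, and the main fit did not model one. With the replicate block Slc30a4 reversed to 0.022. With 1 mouse left out, the sign turned for Slc30a4 (-0.12 to 0.19), Slc39a3 (-0.097 to 0.013), Slc39a6 (-0.13 to 0.12), Slc39a13 (-0.12 to 0.022), S100a8 (-0.37 to 0.064), S100a9 (-0.26 to 0.12), Fabp2 (-0.15 to 0.047) and Vil1 (-0.28 to 0.21), none of which had passed the test. The cause was not tested. Over 59 other named genes, 802 of 822 values kept their sign and side of the threshold. Other size factors shifted the median over all genes by 0.0061 or -0.0062. At this depth Slc30a10 and Slc39a5 rest on the fewest reads of the 8 genes.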
